A study of Mus musculus with 2 samples.

Results

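Liver sugar uptake, sugar phosphorylation and the regulated steps of glycolysis were described through 8 genes: the transporter Slc2a2, the kinases Khk and Hk2, the regulator Gckr, the bifunctional enzymes Pfkfb1 and Pfkfb3, and the pyruvate kinases Pklr and Pkm. The members were the probe sets, that is the groups of oligonucleotides that measure a transcript, whose single gene symbol in the array annotation was one of these names. This gave 10 probe sets for 7 genes, out of 45101 probe sets on the array and 18193 genes with a probe set of their own. For Pfkfb1 no single-symbol probe set was found, and it is not analysed here. The 7 genes passed the filter on level, as did 9 of the 10 probe sets. The genes lie on chromosomes 2 (Pfkfb3), 3 (Slc2a2 and Pklr), 5 (Khk and Gckr), 6 (Hk2) and 9 (Pkm), and 0 of them on chromosome 1.

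The arrays measured liver total RNA of Bglu3 congenic mice and of C57BL/6 apoE-/- control mice, with 1 array per group. In congenic mice a stretch of one strain's chromosome has been bred into another strain, and Bglu3 is a blood glucose locus of chromosome 1. Both groups ate chow from weaning at an age of 3 weeks and a Western diet for 12 weeks from an age of 6 weeks, and the labels list C57BL/6 as strain and hyperglycemia as disease state for both. The donor strain, the ends of the segment, the apoE genotype of the congenic mice, and the number and sex of the mice behind each array are not stated in the labels. Apoe itself, whose probe set has an unknown position relative to the disrupted part and so does not check the genotype, read 229 in congenic and 118 in control liver.

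With 1 array per group there was no spread between animals, so there is no test, and every difference below describes 2 arrays. Differences are log2(intensity + 5) on the congenic array minus the same on the control array, which understates the difference of dim genes. There are 2 yardsticks, and neither measures the missing spread between animals. One is how far expressed probe sets of one gene differed from each other in this quantity, an SD of 0.39, 0.33 and 0.26 log2 units in quartiles 2, 3 and 4 of mean level, from dim to bright. This SD holds no variation between animals, because probe sets of one gene were read on the same 2 arrays. Multiples of it are therefore no test of congenic against control. The other is the share of all 12619 expressed genes past 1.5-fold, which was 7.58% on the higher and 5.27% on the lower side. A gene counted as expressed when its brightest probe set reached the array median on at least 1 array. In whole liver, fewer cells of a type and less RNA per cell cannot be told apart. Of 14 expressed hepatocyte markers, 14 were within 1.5-fold, with a median difference of 0.03 (-0.02 after quantile normalization), and albumin (Alb) read 14121 in congenic and 12910 in control liver, near the highest intensities of the arrays.

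Glycolysis splits glucose into pyruvate, and the liver runs it mainly after feeding, when glucose and insulin are high. Glucose enters hepatocytes through GLUT2 and is trapped there by phosphorylation to glucose 6-phosphate. Fructose is phosphorylated by ketohexokinase and joins the pathway below phosphofructokinase, the main control point, which is activated by fructose 2,6-bisphosphate. Pyruvate kinase closes the pathway, and the gene of its liver form is the classical target of the carbohydrate response element-binding protein ChREBP.

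The promoter sequences of Pfkfb3, which had the largest difference, of Pklr, which was measured by 3 probe sets, and of Khk are shown first, because they hold letters of the elements through which glucose, oxygen and the clock are known to act on this pathway. The windows run from 250 bases before to 50 bases after an annotated start, taken from RefSeq on GRCm38.p6, and 8 of the 8 genes had at least 1 window there. Capitals mark matches, on either strand, to CACGTG (the E-box), to ACGTG (a core of the hypoxia response element, which overlaps every E-box) and to CACGNG followed after 5 bases by CNCGTG (2 E-box-like parts spaced as in a carbohydrate response element). Other forms of the hypoxia core, such as GCGTG, were not searched and are not marked. The Pklr window is that of the downstream of its 2 starts, the one known for the liver form, at chr3:89136373-89136672 on the plus strand. The Pfkfb3 windows are those of its upstream start at chr2:11553880-11554179 and its downstream start at chr2:11502041-11502340, both on the minus strand. The Khk window lies at chr5:30921309-30921608 on the plus strand.
Pklr, downstream start: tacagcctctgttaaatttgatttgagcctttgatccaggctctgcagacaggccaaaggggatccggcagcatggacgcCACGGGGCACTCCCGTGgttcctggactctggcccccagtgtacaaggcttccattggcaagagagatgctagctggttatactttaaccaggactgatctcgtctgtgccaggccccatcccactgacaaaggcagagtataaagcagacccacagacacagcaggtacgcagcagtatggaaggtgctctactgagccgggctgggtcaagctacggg
Pfkfb3, upstream start: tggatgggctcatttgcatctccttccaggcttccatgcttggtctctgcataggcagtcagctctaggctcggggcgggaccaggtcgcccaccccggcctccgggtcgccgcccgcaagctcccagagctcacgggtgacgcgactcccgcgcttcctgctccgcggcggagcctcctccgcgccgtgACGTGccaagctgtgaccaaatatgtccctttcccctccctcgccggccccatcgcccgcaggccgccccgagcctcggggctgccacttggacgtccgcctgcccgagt
Pfkfb3, downstream start: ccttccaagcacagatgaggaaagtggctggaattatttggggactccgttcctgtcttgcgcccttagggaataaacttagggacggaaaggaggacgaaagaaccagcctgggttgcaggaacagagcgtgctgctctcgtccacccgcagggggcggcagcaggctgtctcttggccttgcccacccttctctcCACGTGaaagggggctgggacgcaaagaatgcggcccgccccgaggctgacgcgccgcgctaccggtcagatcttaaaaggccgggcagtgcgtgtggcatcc
Khk: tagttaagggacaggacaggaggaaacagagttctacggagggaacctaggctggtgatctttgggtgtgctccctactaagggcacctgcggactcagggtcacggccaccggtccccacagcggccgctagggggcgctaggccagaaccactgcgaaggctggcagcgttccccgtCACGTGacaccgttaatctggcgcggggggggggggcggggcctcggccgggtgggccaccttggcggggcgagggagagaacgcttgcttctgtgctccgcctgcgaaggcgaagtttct

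The paired element of Pklr spans bases -170 to -154 before the start and reads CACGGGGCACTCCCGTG. Its letters are rare, being present in 15 of 32851 promoter windows (0.0457%), and Pklr had the only match among the 14 windows of the 8 genes. The E-box stood at -53 to -48 before the downstream Pfkfb3 start and at -71 to -66 before the Khk start, and 7.15% of all windows hold one. The upstream Pfkfb3 window has ACGTG at -60 to -56, and these letters occur, on either strand, in 19.6% of all windows. In the Hk2 window, at chr6:82774405-82774704 on the minus strand, ACGTG was found on the other strand at -226 to -222 and at -52 to -48. In the window of the downstream Pkm start it was found on that strand at -75 to -71 and, after the start, at 9 to 13. In all, 5 of the 14 windows hold ACGTG on either strand. These matches are descriptions of sequence, and the arrays do not measure what binds there.

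Pfkfb3 was lower in the congenic array by more than 2-fold, Hk2 was higher by about 1.5-fold, and the other 5 genes lay within 1.5-fold. The count past 1.5-fold was therefore 1 of 7 genes higher and 1 of 7 lower, beside 7.58% and 5.27% of all expressed genes. By 2-fold, 0 of 7 were higher and 1 lower, beside 1.99% and 1.46%. Of the 7 genes, 4 were higher and 3 lower at any size, beside 56.1% and 43.8% of all expressed genes, and their median was 0.23 against 0.04 for all expressed genes. With a filter at the 75th percentile, which leaves out Hk2, the median was -0.03, so the set as a whole has no settled direction.

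**Figure D1:**
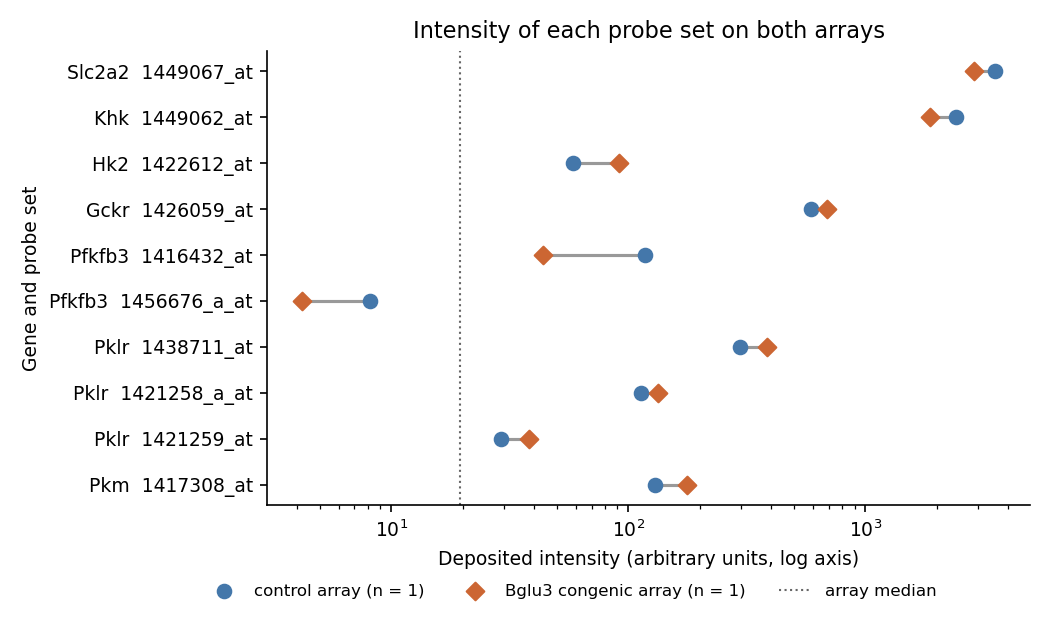
Deposited intensity of each of the 10 probe sets (log axis) on the control array (circles) and the Bglu3 congenic array (diamonds), 1 array each, with the array median as a dotted line. The widest gap is that of the brighter Pfkfb3 probe set, at 117 on the control and 43.8 on the congenic array, while the 3 Pklr probe sets all sit to the right on the congenic array.

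Entry and trapping of sugar came first in the pathway. Slc2a2, which encodes GLUT2, the low-affinity glucose transporter of the hepatocyte, read 2868 in congenic and 3525 in control liver. Without the pseudocount, the congenic value was 81.3% of the control value. The log2 difference was -0.30, or 1.12 times the SD between probe sets of genes at this level. Khk, ketohexokinase, which phosphorylates fructose, stood at 1870 on the congenic array against 2412 on the control array. Its log2 difference was -0.37, or 1.38 times that SD. Both genes are bright and were lower in the congenic array by amounts that fall short of 1.5-fold. In their quartile of level, 2.73% of genes were lower by 1.5-fold or more.

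Hk2, the insulin-responsive hexokinase of muscle and fat, which is normally low in hepatocytes, read 91.6 in congenic and 58.45 in control liver. The log2 difference of 0.61 was just past the 1.5-fold line at 0.58 and was 1.57 times the SD between probe sets at its level, where 8.43% of genes were higher by that much. Its call depended on the processing. Hk2 fell below 1.5-fold after quantile normalization, after removal of a loess trend and with a pseudocount of 20. It stayed past the line with the arrays centred on their medians and with no pseudocount. The filter and probe set alternatives that kept Hk2 could not change its value, because it has 1 probe set. They are counted in the 7 of 10 alternatives under which it was past 1.5-fold. Pkm, the pyruvate kinase of muscle, immune and proliferating cells, was the nearest gene below the line. Both other hexokinases that were expressed differed less. Hk1, the housekeeping form, stood at 104 against 94.7 (log2 difference 0.13), and Hk3, a form of myeloid cells, at 119 against 123 (-0.04), with its other probe set at 0.29. The other probe set of Hk1 was at 0.32.

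Gckr, a nuclear regulatory protein that inhibits glucose phosphorylation in the fasted hepatocyte, read 691 in congenic and 588 in control liver. The log2 difference of 0.23 was smaller than the SD between probe sets at its level, 0.26.

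Pfkfb3 had the largest difference of the 7 genes. It encodes a bifunctional enzyme with high kinase activity that makes fructose 2,6-bisphosphate, and it is inducible by hypoxia and by inflammatory signals in many cell types. Its brighter probe set read 43.8 in congenic and 117 in control liver, a log2 difference of -1.32. Without the pseudocount, the congenic value was 37.4% of the control value. The log2 difference was 3.43 times the SD between probe sets at this level, where 1.01% of genes were lower by 2-fold or more. The second Pfkfb3 probe set was below the median of both arrays, at 4.21 against 8.13, and differed by -0.51, on the same side. Pfkfb3 was past 1.5-fold on the lower side under 11 of 11 alternatives, between -1.42 and -0.92.

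The paralogs of Pfkfb3 did not share this size. Pfkfb4, a form known from testis and from hypoxic cells, stood at 79.5 against 55.4, a log2 difference of 0.48 on the opposite side. Pfkfb2, the heart form, whose gene lies on chromosome 1, read 21.7 and 29.0 (log2 difference -0.35). Its 4 probe sets ran from -0.81 to 0.10. Among the subunits of phosphofructokinase itself, the liver form Pfkl differed by 0.35, the platelet form Pfkp by 0.18 and the muscle form Pfkm by -0.05. The probe sets of Pfkl ran from -0.59 to 0.35 and those of Pfkp from -1.06 to 0.18, so neither gene has a settled direction.

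Both pyruvate kinase genes read higher in the congenic array, each by less than 1.5-fold, and 56.1% of all expressed genes read higher at any size. Pklr, which encodes the liver and red cell enzyme, had 3 probe sets, and each was brighter on the congenic array. The brightest stood at 386 against 296, a log2 difference of 0.38. The second stood at 133 against 113, which is a log2 difference of 0.22. The dimmest stood at 38.0 against 29.0, with a log2 difference of 0.34. The probe sets thus spread over 0.15 log2 units, less than the SD of 0.33 between probe sets at this level, and the difference of the brightest was 1.16 times that SD. Probe sets of one gene read the same 2 RNA samples, so they are no replicates. Pkm stood at 177 against 129.8, a log2 difference of 0.43, or 1.33 times the SD. Which splice form, PKM1 or PKM2, its probe set reads is not known here.

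**Figure D2:**
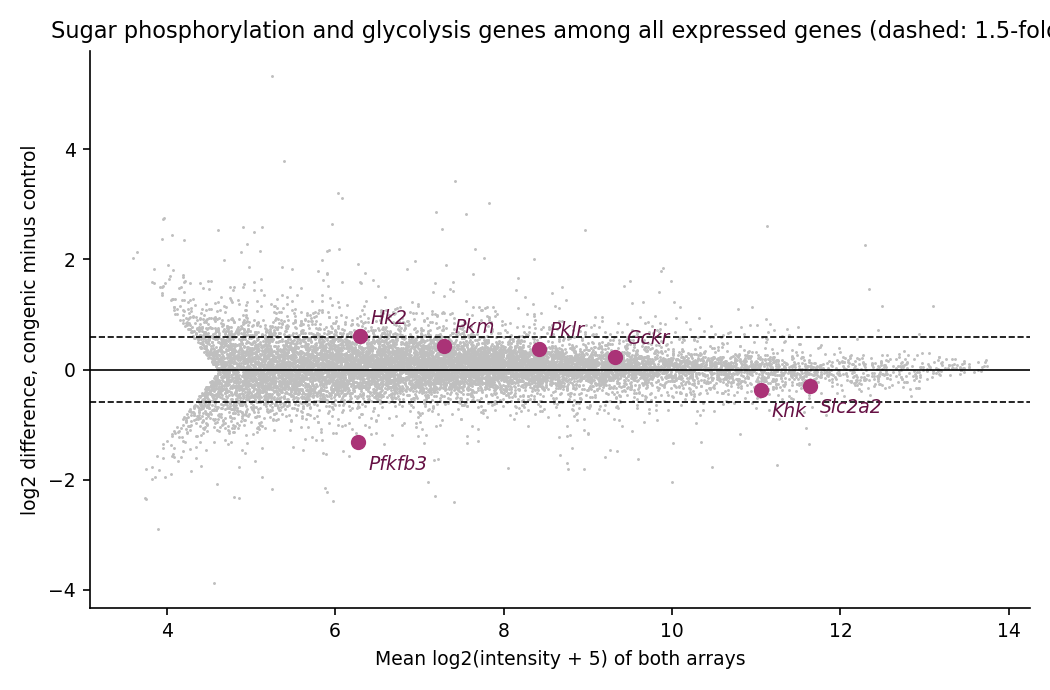
Each grey point is one of the 12619 expressed genes, placed by its mean log2(intensity + 5) over both arrays and by its log2 difference, congenic minus control, and the labelled points are the 7 genes with a probe set. Pfkfb3 (-1.32) lies well outside the dashed 1.5-fold lines, Hk2 (0.61) lies on the upper one, and the other 5 lie between the lines.

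Markers of immune cells, in which Hk2, Pkm and Pfkfb3 are also known to be expressed, were mostly higher in congenic liver. Macrophage and Kupffer cell markers were higher by 1.5-fold or more in 9 of 15 expressed genes and lower in 0, with a median of 0.72, and the summed intensity of the list was 37114 in congenic and 23385 in control liver. Marco, a scavenger receptor (log2 difference 1.85), Timd4 (1.66) and Cd14, a co-receptor for endotoxin (0.96), were its highest members. The Marco gene lies on chromosome 1, as Bglu3 does. Neutrophil and myeloid progenitor markers had sums of 4347 and 1443, and 8 of 12 genes were higher and 0 lower, with a median of 1.51. Only 8 of the 12 reached the array median on both arrays, and among these 4 were higher and 0 lower, with a median of 0.58. The 3 highest, the granule genes Camp (3.78), Prtn3 (3.20) and Mpo (2.59), passed the filter through the congenic array alone, with control intensities of 6.35, 16.6 and 9.28. Lymphocyte markers were higher in 9 of 11 genes, lower in 0, with a median of 0.88 and sums of 2481 and 896, led by Jchain (2.87), Ighm (2.19) and Cd79b (1.99). The 11 probe sets of Ighm ran from -0.59 to 2.66. No marker of these 3 lists was at or below 1, the repeated low value of the arrays, by its brightest probe set, and Cd4 on the control array came nearest at 1.01. The part of these cells in the differences of Hk2 and Pkm was not tested. Pfkfb3 was on the opposite side from these markers.

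Few markers of other tissues were expressed. Skeletal muscle, adipocyte, pancreatic and kidney lists had only 3, 2, 2 and 1 expressed markers. The pancreatic ones, Cela1 at 224 against 216 and Cela2a at 111 against 121, and the muscle marker Acta1 at 83.7 against 97.0 were within 1.5-fold. All 3 muscle markers were lower at any size, and Atp2a1 was lower by 1.5-fold, at 7.97 against 22.3 (log2 difference -1.07). Atp2a1 reached the array median on the control array alone. Ins2, the insulin gene of beta cells, which also express Slc2a2, stood at 1.36 on both arrays. Stellate cell and fibroblast markers were higher in 6 of 12 genes, with a median of 0.52 and sums of 9489 and 7254, although this median was 0.11 when all probe sets of a gene were averaged. Of 10 endothelial markers, 0 were higher and 1, Lyve1 (-0.65), was lower by 1.5-fold, and the median was 0.26. Cholangiocyte markers had 0 of 4 past 1.5-fold. Erythroid markers, of interest because Pklr also serves red cells, had 1 of 5 higher, Klf1 (0.88), and 1 lower, Car1 (-0.66), with sums of 364 and 334.

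The rest of the glycolytic chain was level. Of 26 further glycolysis enzymes, 21 had a probe set with a single symbol and 18 were expressed, and 0 of the 18 were higher and 0 lower by 1.5-fold. Their median was 0.08, and it was -0.03 when all probe sets were averaged and -0.04 with plain probe sets only. Pfkfb4 and Pfkfb2 were the extremes, at 0.48 and -0.35. Among its bright enzymes were Tpi1, triose phosphate isomerase, at 0.05, Pgk1, phosphoglycerate kinase, at -0.12, Aldoa at -0.20 and Ldha, lactate dehydrogenase, at 0.11. The others of the 26 are not analysed here.

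Genes around Khk on the routes for fructose and other sugars were mixed. Of 12 such genes, 7 had a probe set with a single symbol, and all 7 were expressed. By 1.5-fold, 1 was higher and 0 lower, with a median of -0.24. Tkfc, the triokinase that phosphorylates glyceraldehyde made from fructose, was higher in the congenic array at 992 against 709, a log2 difference of 0.48, opposite in sign to Khk. Glyctk, glycerate kinase, which handles another product of fructose, differed by -0.36. Pmm1, a phosphomannomutase, was the gene past 1.5-fold at 64.0 against 39.2 (log2 difference 0.64), though its other probe set differed by 0.09.

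Sugar transporters other than Slc2a2 were mostly level, with 10 of 11 expressed, 0 higher and 1 lower by 1.5-fold. Slc2a1, the widespread GLUT1, differed by 0.12, and Slc2a5, the fructose transporter of the intestine, by -0.11. Slc5a2, the sodium-glucose cotransporter of the kidney, was the one past the line, at 108 against 207 (log2 difference -0.91). The other probe set of Slc5a2 differed by 0.31.

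Glucose-responsive genes, the usual companions of Pklr, went both ways. Of 18 expressed genes of the ChREBP and SREBP-1c list, 4 were higher and 3 lower by 1.5-fold, and 11 were within it. Mlxipl, which encodes ChREBP, read 492 in congenic and 480 in control liver, a log2 difference of 0.04. Mlx, its dimer partner, stood at 143 against 227 (log2 difference -0.65). The other probe set of Mlx differed by -0.06. Txnip and Arrdc4, arrestin-like genes that are strongly induced by glucose, were higher at 1562 against 1030.0 (0.60) and at 218 against 134 (0.68). Both Arrdc4 probe sets lay between 0.68 and 0.79, and both Txnip probe sets between 0.26 and 0.60. Elovl6, a fatty acid elongase, was higher by 0.65 and G6pc, the glucose-6-phosphatase that opposes the hexokinases, by 1.14. Thrsp, a lipogenic protein, had a log2 difference of -1.63, although another of its 3 probe sets was at 0.12. Bhlhe40, a repressor of the clock that also answers to hypoxia, differed by -1.12. Srebf1, the insulin-responsive lipogenic factor, stood at 562 against 782 (log2 difference -0.47). Pklr, Txnip and Arrdc4 were on the same side, while Mlxipl differed by 0.04. The list as a whole had no direction, with 9 genes higher and 9 lower at any size and a median of 0.002.

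Of the gluconeogenic genes, which run the pathway in reverse, 2 of 14 were higher and 2 lower by 1.5-fold, with a median of -0.10. G6pc and the aminotransferase gene Got1 (0.82) were the higher ones, and Foxo1 (-0.65) and G6pc3 (-0.78), a widely expressed phosphatase, the lower ones. The 4 probe sets of Foxo1 ran from -0.79 to 0.16. G6pc3 was dim, at 12.4 against 24.9, and passed the filter through the control array alone. Fbp1, which opposes phosphofructokinase and is inhibited by the product of Pfkfb3, stood at 10807 against 10024 (log2 difference 0.11), and Pck1 at 6586 against 6668 (-0.02).

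Genes that decide the fate of pyruvate were mostly lower in the congenic array, each by less than 1.5-fold. Of 14 expressed genes, 11 were lower at any size (78.6%), beside 43.8% of all expressed genes, but 0 were higher and 0 lower by 1.5-fold. The median was -0.26, and it lay between -0.28 and -0.20 under the alternatives. The subunits of pyruvate dehydrogenase Pdha1 and Pdhb differed by -0.28 and -0.29, and Mpc1, of the mitochondrial pyruvate carrier, by -0.20. Pdk4, the kinase that shuts this enzyme in fasting, was on the other side at 259 against 179 (log2 difference 0.52), while its relative Pdk2 differed by -0.46.

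Most targets of the hypoxia factor HIF-1 outside glycolysis were lower in the congenic array, as Pfkfb3 was. Of 13 expressed genes, Hif1a itself among them, 11 (84.6%) were lower at any size, with 0 higher and 1 lower by 1.5-fold. The median was -0.35 against 0.04 for all expressed genes. The median lay between -0.41 and -0.32 under the alternatives. Ankrd37, a small ankyrin repeat gene strongly induced by hypoxia, read 119 in congenic and 283 in control liver, a log2 difference of -1.21, close to that of Pfkfb3. Kdm3a, a histone demethylase, stood at 191 against 287 (-0.57), Egln3, an oxygen-sensing prolyl hydroxylase, at 145 against 208 (-0.51) and Bnip3, a mitophagy receptor, at 3009 against 4064 (-0.43). Car9, a carbonic anhydrase and classical HIF-1 target, was on the other side and dim, at 25.9 against 17.7 (0.45). Vegfa, the vascular growth factor, differed by -0.35 and Adm by -0.18, while their other probe sets were at 0.25 and 0.12. Hif1a, which is counted among the lower genes of the list, stood at 522 against 540.3 (-0.05). Hk2 and Pkm, which are also textbook targets of HIF-1, were on the opposite side from this list.

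Clock genes also differed between the arrays, and the time of day of tissue collection is not labelled. Of 16 expressed clock genes, 2 were higher, Arntl (1.14) and Npas2 (0.81), and 4 lower by 1.5-fold, among them Ciart (-1.29), Per2 (-1.28) and Dbp (-0.75). The other probe set of Arntl differed by -0.05 and that of Npas2 by -0.99. Npas2 and Per2 lie on chromosome 1. The part of oxygen supply or time of day in the difference of Pfkfb3 was not tested.

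**Figure D3:**
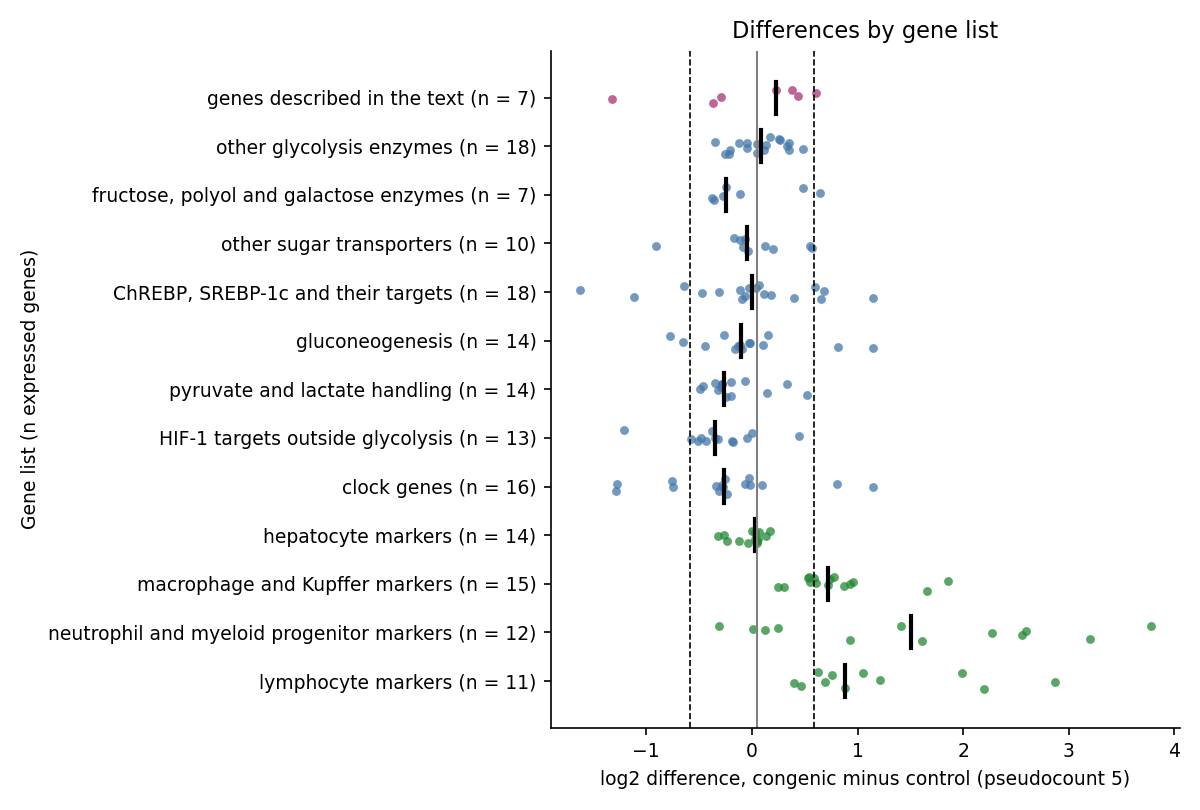
Log2 difference, congenic minus control, of each expressed gene by list, with a black bar at each median, a grey line at the median of all expressed genes and dashed lines at 1.5-fold. The other glycolysis enzymes stay between the dashed lines, the pyruvate and HIF-1 lists have medians of -0.26 and -0.35, and the macrophage, neutrophil and lymphocyte lists have medians of 0.72, 1.51 and 0.88, of which the neutrophil one is 0.58 over genes expressed on both arrays. Under some alternatives the medians of the genes described here, the other glycolysis enzymes, the other sugar transporters, the ChREBP and SREBP-1c list and the hepatocyte markers change sign.

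The 5 genes within 1.5-fold moved little with the processing. Over the main setting and all alternatives, Khk lay between -0.38 and -0.34, Slc2a2 between -0.30 and -0.26, Gckr between 0.20 and 0.25, Pklr between 0.31 and 0.40, and Pkm between 0.38 and 0.46. Each of the 7 genes kept its sign under every alternative that was run. Filters could not change the value of a gene that they kept, nor could probe set rules for the genes with 1 probe set.

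**Figure D4:**
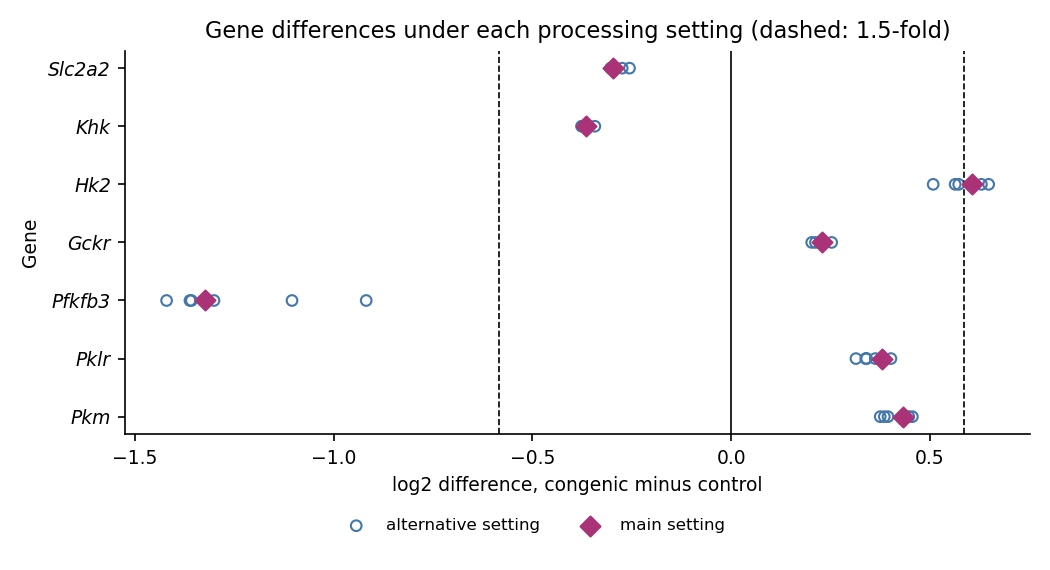
Log2 difference of each of the 7 genes under the main setting (diamonds) and under the alternative settings of scaling, pseudocount, filter and probe set choice (open circles), with dashed lines at 1.5-fold. No gene crosses 0, Hk2 straddles the upper line between 0.51 and 0.65, and Pfkfb3 stays beyond the lower line.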

How the data were processed

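Biotinylated cRNA was made from 8 µg of total RNA by the standard Affymetrix procedure, per the labels' protocols. The deposited values are 1 linear intensity per probe set and array. How the authors summarized and scaled the probes is not stated in the labels or the file. The array medians of 19.3 (congenic) and 19.7 (control) differ by -0.03 on the log2 scale, so the intensities were used as deposited. Of 45101 probe sets, 64 were controls, 34945 had 1 gene symbol in the platform annotation, 932 had several and 9160 had none. Only those with 1 symbol were named.

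Each gene was represented by its brightest probe set, and 12619 genes reached the array median on at least 1 array. Differences used a pseudocount of 5 (Python 3.11.15, pandas 2.3.3, statsmodels 0.14.6). Gene lists were described by counts past 1.5-fold and by medians, with no test. The genes named were all members, list genes past 1.5-fold (at most 3 in each direction) and paralogs and regulators of the members, and others named to describe a list were chosen after their values were seen. The members and lists were chosen with earlier results of these data known. Chromosomes come from the RefSeq gene table of GRCm38.p6. The calculation was tested on simulated data. Alternatives changed the scaling, the pseudocount, the filter, the probe set rule and the fold. An alternative value of a gene counted as the same when it moved by less than 0.34, the SD between probe sets of 1 gene, and that of a list median by less than this SD divided by the square root of the list's size.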

Additional observations from a re-analysis of the deposited data

How the results depend on the processing

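Of 305 alternative values, 266 stayed within the limits set and 0 changed the sign of a gene past 1.5-fold. The 266 include values of single genes that could not move, such as those of a gene with 1 probe set under the filters and probe set rules. The count of the genes described here that were higher by 1.5-fold, which rests on Hk2 alone, was 0 after quantile normalization, after removal of a loess trend, with a pseudocount of 20, with a filter at the 75th percentile and with 2-fold in place of 1.5-fold, while the count of lower ones was 1 throughout. Pfkfb3 differed by -0.92 as the mean over all probe sets. All expressed genes past 1.5-fold numbered 957 higher and 665 lower, 559 and 350 with a pseudocount of 20, 1598 and 1466 with no filter, and 392 and 213 with a filter at the 75th percentile. With the array median required on both arrays, 383 were lower. With the filter at the 75th percentile, the medians were -0.034 for the genes described here, 0.0013 for other glycolysis enzymes, 2.55 for neutrophil and 0.67 for stellate cell markers. With the array median on both arrays the neutrophil median was 0.58, and with no filter the erythroid median was 0.17. With a pseudocount of 20 and with none the lymphocyte median was 0.66 and 0.99. As the mean over all probe sets, the medians were -0.035 for other glycolysis enzymes, -0.18 for clock genes, 0.76 for lymphocyte and 0.11 for stellate cell markers, which had 0.14 as the median over probe sets that pass the filter. With plain _at probe sets only, the medians were -0.039 for other glycolysis enzymes, 1.41 for neutrophil, 0.70 for lymphocyte and 0.19 for stellate cell markers. Filters and probe set rules change which genes or probe sets enter; otherwise the cause was not tested. No paired analysis was possible because each group has 1 array and the labels carry no replicate numbers, and for the same reason no array could be left out. Signal over background limits the dim probe sets, among them the second one of Pfkfb3.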

Other observations

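Several enzymes next to the genes described here have probe sets that disagree with each other by more than the genes differ between the arrays. The 3 probe sets of Tigar, a fructose bisphosphatase that lowers fructose 2,6-bisphosphate, ran from -0.68 to 0.80 in log2 difference, congenic minus control, around a value of 0.35 for the brightest. Those of the phosphofructokinase gene Pfkl ran from -0.59 to 0.35, those of Pfkp from -1.06 to 0.18, and those of the aldolase gene Aldoa from -0.71 to -0.20. Tpi1 was measured evenly, with 3 probe sets between 0.03 and 0.08.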
